A study of Arabidopsis thaliana with 8 samples.

Results

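The transcripts described here encode the MYC activators MYC2, MYC3, MYC4 and MYC5 and the JAM repressors JAM1, JAM2 and JAM3, which are basic helix-loop-helix (bHLH) factors of subgroups IIIe and IIId and relatives of TT8. They were taken as 7 listed loci of 25433 genes on the array, and 9 of 34358 named probes read them. The gene table given with the data lists MYC5 as NIG1 and JAM1 as AIB, and uses the locus as the symbol of JAM2 and JAM3. Total RNA of whole Arabidopsis thaliana seedlings aged 6 days was compared between a single TT8 loss-of-function line, tt8-3, and its wild type (WT), both in the Ws background and both grown on sucrose-containing medium without a further treatment named in the labels. Each line had 4 arrays of the 1-colour Agilent kind, 2 on each of 2 slides, and the lines lay at different positions on a slide, so position and genotype cannot be told apart. Same-slide arrays of one line were treated as technical repeats and averaged, which gave 2 against 2 averages. The labels do not say that the averages came from separate cultures, so p-values measure only the spread between these averages, which may be technical.

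In jasmonate signalling, the active hormone brings the receptor COI1 together with JAZ proteins, which are then degraded. JAZ proteins otherwise hold MYC factors inactive through the adaptor NINJA and co-repressors of the TOPLESS family. Freed MYC factors bind G-box sequences and activate wound and defence genes, JAZ genes among them, while JAM factors compete for the same sequences and lower the response. In seedlings these factors are known for inhibition of root growth and for defence against chewing insects.

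With same-slide arrays averaged, MYC2, MYC3, MYC4 and JAM1 transcripts rose in tt8-3 seedlings. JAM2 and JAM3 did not pass the test, and MYC5 had no signal well above background. With arrays at the same place on both slides averaged instead, only MYC2 passed, where 2.74% of all genes rose. With same-slide averages the rises were 2.58-fold for MYC2, 2.17-fold for JAM1, 1.54-fold for MYC4 and 1.43-fold for MYC3. They took in activators and 1 repressor. Of the 6 members tested 4 rose and none fell, where 15.7% of all 19226 genes tested rose and 26.7% were called in either direction (limma, adjusted p under 0.05). In the same 4 genes every tt8-3 array lay above every WT array, as it did in 19.7% of all genes tested. The median log2 change of the 6 was 0.57, beside 0.011 over all genes tested. A level below is the processed signal on a log2 scale, relative to the array's own 75th percentile, and a change is the tt8-3 level minus the WT level. In whole-seedling RNA, fewer cells of a type and less RNA per cell cannot be told apart.

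**Figure D1:**
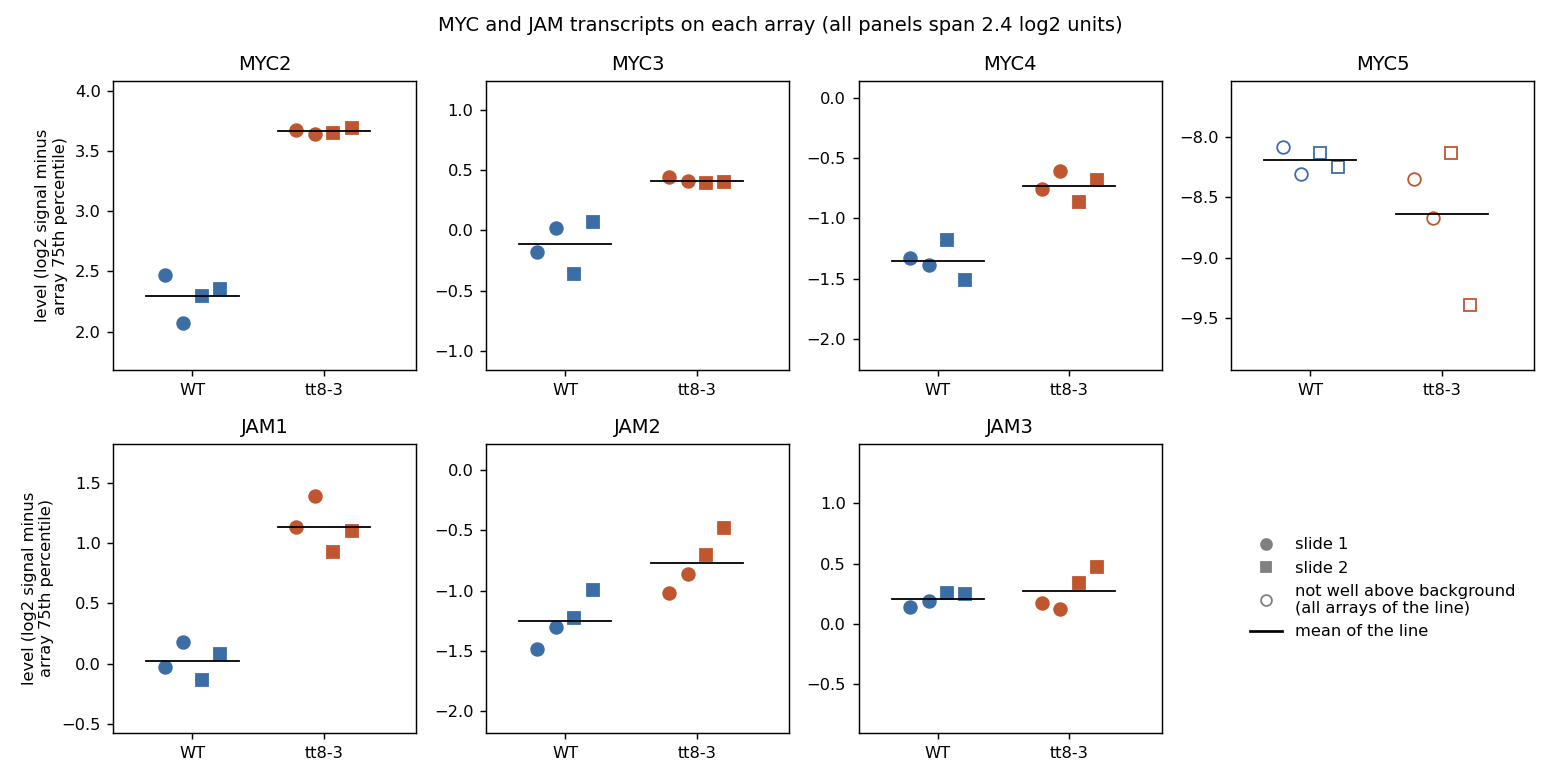
Level of each member (log2 signal relative to the array's 75th percentile) on every array, at the probe that stands for the gene, with WT and tt8-3 side by side, circles for slide 1, squares for slide 2 and a bar at the mean of the line. The 4 tt8-3 arrays lie above all 4 WT arrays for MYC2, MYC3, MYC4 and JAM1, and the lines overlap for JAM2, JAM3 and MYC5.

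MYC2 (AT1G32640), the main activator of the pathway, had levels of 2.47, 2.07, 2.30 and 2.35 on WT replicates 1 to 4 and of 3.67, 3.64, 3.65 and 3.69 on tt8-3 replicates 1 to 4. The linear signals behind these levels were 3010, 3370, 3870 and 4990 in WT and 10200, 9370, 12500 and 14300 in tt8-3. The lowest tt8-3 array lay 1.18 above the highest WT array, and the tt8-3 arrays spread over 0.05 against 0.40 in WT. The mean level was 2.30 ± 0.0401 in WT and 3.66 ± 0.0117 in tt8-3 (SD, n = 2 averages). MYC2 rose by 1.37 on the log2 scale (SE 0.0843, 95% interval 1.14 to 1.60, limma adjusted p = 0.00403). The change was 1.39 on slide 1 and 1.35 on slide 2.

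MYC3 (AT5G46760), which shares many functions with MYC2, had levels of -0.18, 0.02, -0.36 and 0.07 on the WT replicates and of 0.44, 0.41, 0.39 and 0.40 on the tt8-3 replicates. All tt8-3 arrays were higher than all WT arrays, by at least 0.32, and they spread over 0.04 against 0.44 in WT. MYC3 rose by 0.52 (SE 0.0849, 95% interval 0.29 to 0.75, limma adjusted p = 0.0215), with 0.50 on slide 1 and 0.54 on slide 2. In WT the second array of a slide was 0.20 and 0.44 above the first, so the change was 0.69 between the first arrays of the lines and 0.35 between the second.

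MYC4 (AT4G17880), the third activator of vegetative tissue and, with MYC2 and MYC3, a regulator of glucosinolate genes, was read by 2 probes. At the brighter probe the levels were -1.33, -1.39, -1.18 and -1.51 in WT and -0.76, -0.61, -0.86 and -0.68 in tt8-3. The lines did not overlap, with a gap of 0.32. At this probe MYC4 rose by 0.63 (SE 0.0867, 95% interval 0.39 to 0.86, limma adjusted p = 0.0155), with 0.67 on slide 1 and 0.58 on slide 2. The other probe was not well above background on any WT array and was so on 2 of 4 tt8-3 arrays, so it was not tested.

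MYC5 (AT5G46830), known from stamen development, had levels of -8.08, -8.31, -8.13 and -8.25 in WT and of -8.35, -8.67, -8.13 and -9.39 in tt8-3. None of these 8 signals was well above background, so the values have no order and no fold is given. The linear signals were 1.65 to 3.53.

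JAM1 (AT2G46510), a repressor of jasmonate responses also known as a factor induced by abscisic acid, had levels of -0.03, 0.18, -0.14 and 0.08 in WT and of 1.13, 1.39, 0.93 and 1.1 in tt8-3. The lines were 0.75 apart at their nearest arrays. JAM1 rose by 1.12 (SE 0.124, 95% interval 0.78 to 1.45, limma adjusted p = 0.0107), with 1.19 on slide 1 and 1.04 on slide 2. Between arrays of the same replicate number the change was 1.16, 1.21, 1.07 and 1.02.

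JAM2 (AT1G01260), a second repressor of the response, had levels of -1.48, -1.30, -1.23 and -0.99 in WT and of -1.02, -0.86, -0.70 and -0.48 in tt8-3. The highest WT array lay just above the lowest tt8-3 array, by 0.03, so the lines overlapped. The change of 0.48 (SE 0.176, 95% interval 0.00 to 0.96) did not pass, with a limma adjusted p = 0.116. Between arrays of the same replicate number the change was 0.45, 0.44, 0.52 and 0.52, the closest set among the members tested. Both lines were higher on slide 2, by 0.25 and 0.31 in WT and by 0.32 and 0.39 in tt8-3, and the second array of a slide was higher than the first by 0.17 and 0.23 in WT and by 0.16 and 0.23 in tt8-3. In the fit that blocks on slide JAM2 passed (SE 0.0474, limma adjusted p = 0.00486), where 33.8% of all genes rose. With position averages JAM2 did not pass (limma adjusted p = 0.192).

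JAM3 (AT4G16430), which acts with JAM1 and JAM2, was also read by 2 probes. Its levels at the brighter probe were 0.14, 0.19, 0.26 and 0.25 in WT and 0.17, 0.12, 0.34 and 0.47 in tt8-3, and the lines overlapped. The change was 0.07 (95% interval -0.27 to 0.41, limma adjusted p = 0.721), and its sign differed between slide 1 (-0.01) and slide 2 (0.15). At the dimmer probe, well above background on 3 WT and 4 tt8-3 arrays, the change was 0.13 (SE 0.278, limma adjusted p = 0.751 over all probes that passed the filter).

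**Figure D2:**
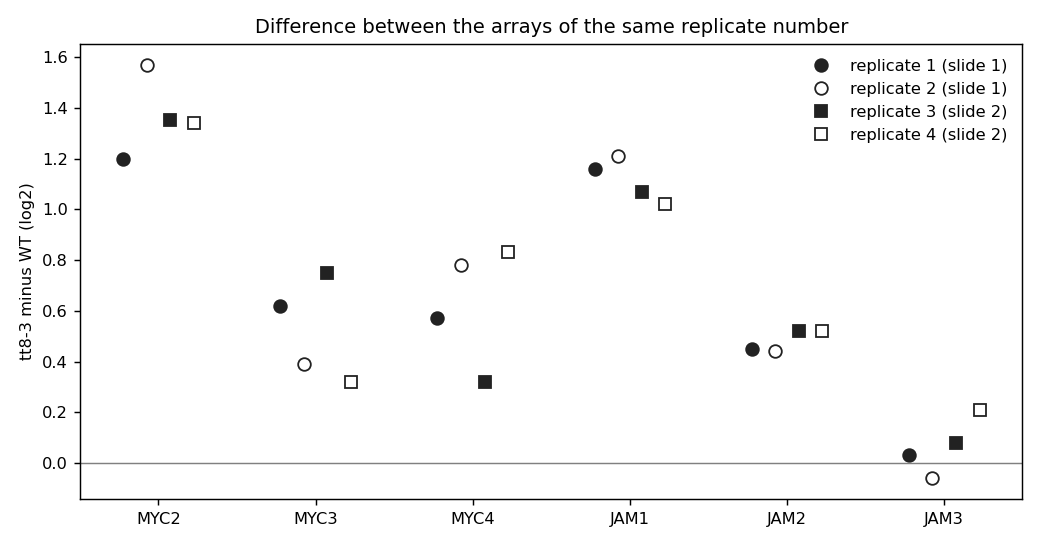
Difference in level (tt8-3 minus WT, log2) between the arrays of the same replicate number, 1 point per replicate number and tested member, circles for slide 1 and squares for slide 2. JAM2 spans 0.44 to 0.52 and JAM1 1.02 to 1.21, while MYC3 spans 0.32 to 0.75 and MYC4 0.32 to 0.83.

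The member calls changed with the choice of arrays to average. With arrays of a line at the same place on both slides averaged instead, 1 of the 6 members rose, MYC2 (SE 0.155, limma adjusted p = 0.0288), where 2.74% of all genes rose. JAM1 narrowly missed the threshold over genes (adjusted p = 0.0532) and met it over all probes that passed the filter (0.0433), and MYC4 (0.127), MYC3 (0.182), JAM2 (0.192) and JAM3 (0.81) did not pass. The fit that blocks on slide called 5 of the 6 higher, all but JAM3, where 33.8% of all genes rose. The changes themselves were the same in these fits, which differ in the spread. In both lines the differences between the arrays of a slide recurred on the other slide (r = 0.88 in WT and 0.67 in tt8-3). Of these fits only that with position averages counts such differences as spread.

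**Figure D3:**
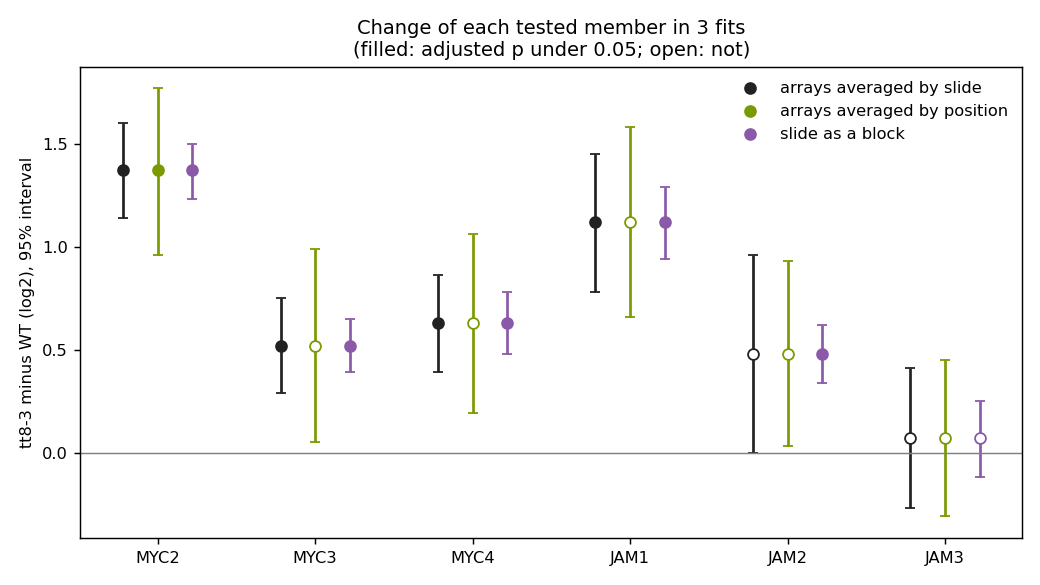
Change of each tested member (tt8-3 minus WT, log2) with its 95% interval in 3 fits, filled where the adjusted p is under 0.05. MYC2 is filled in all 3 fits and JAM3 in none, and JAM2 is filled only in the fit that blocks on slide.

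Leaving out 1 array or 1 slide average kept the call in 12 of 12 fits for MYC2 (change 1.27 to 1.47) and JAM1 (0.99 to 1.24). For MYC4 it was kept in 8 of 12, and was lost without WT replicate 4 (adjusted p = 0.0669), without either WT slide average (0.0939 and 0.0899) and without the tt8-3 average of slide 1 (0.0511). For MYC3 it was kept in 4 of 12, those that left out a single tt8-3 array, and was lost without any single WT array (0.0506 to 0.129) or any slide average (0.063 to 0.156). MYC3 also lost its call with the array median as the scale (change 0.42, adjusted p = 0.0522) and without the filter on dim probes (adjusted p = 0.0604). With the array median as the scale the median change over all genes was -0.091, and 2155 genes (11.2%) were higher and 2636 (13.7%) lower, against 3027 and 2106 in the fit above. With that scale MYC2 rose by 1.26, JAM1 by 1.01 and MYC4 by 0.52, JAM2 was at 0.38 and JAM3 at -0.04.

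The difference between slides in the change was tested on single arrays. No gene of 19226 passed (limma, 0.00% called), and 109 had an unadjusted p under 0.05. These p-values measure only the spread between arrays of a line on a slide. That spread holds differences that recurred on the other slide (r = 0.88 in WT and 0.67 in tt8-3). The lack of calls therefore cannot show that the change was the same on both slides. For the members the change on slide 2 minus that on slide 1 was -0.14 (95% interval -0.70 to 0.42) for JAM1, -0.04 (-0.58 to 0.50) for MYC2 and 0.16 (-0.23 to 0.55) for JAM3, and the intervals of MYC3, MYC4 and JAM2 also spanned 0.

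Closer relatives of TT8 in subgroup IIIf were compared with the members. The level of TT8 (AT4G09820), a flavonoid activator, was 4.29 ± 0.0642 in WT and -6.40 ± 0.858 in tt8-3 (SD, n = 2 averages), where no array was well above background, so it was at least 1520-fold lower (limma adjusted p = 0.00179). MYC1 (AT4G00480), which works in epidermal cell patterning, rose by 0.89 (SE 0.103, limma adjusted p = 0.0113) with no overlap of the arrays, and missed the threshold with position averages (adjusted p = 0.115). EGL3 (AT1G63650), a flavonoid and trichome factor, was at 0.32 (adjusted p = 0.29). GL3 (AT5G41315), a trichome factor, was well above background on 3 tt8-3 arrays and no WT array, and was not tested. The arrays of the lines overlapped, with levels of -7.79 to -6.28 in WT and -6.68 to -5.40 in tt8-3, so no fold is given. BHLH14 (AT4G00870), which belongs to subgroup IIId with the JAM factors, had no array well above background.

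JAZ genes, whose proteins bind and repress the MYC factors, mostly rose. Of 12 tested 7 rose and 1 fell, with a median change of 0.69, where 15.7% of all genes rose and 11.0% fell, and 4 to 7 rose and at most 1 fell when an array or average was left out. The fall was that of JAZ3 (AT3G17860), by 0.45 (adjusted p = 0.0314, kept in 1 of 12 of those fits, with changes of -0.64 to -0.26), singled out after its value was seen. JAZ1 (AT1G19180) rose by 1.62 (adjusted p = 0.00296), JAZ8 (AT1G30135) by 1.55 (0.00408), JAZ10 (AT5G13220) by 1.43 (0.00405) and JAZ7 (AT2G34600) by 1.23 (0.00696). With position averages 3 JAZ genes rose, where 2.74% of all genes did, with JAZ8 (0.0332) and JAZ10 (0.0253) past the threshold and JAZ1 (0.0535) and JAZ7 (0.0809) not.

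The receptor complex and co-repressors gave few calls. Of 12 tested none rose and 1 fell, with a median of -0.12, where 11.0% of all genes fell. The gene that fell was TPR1 (AT1G80490), a co-repressor of the TOPLESS family, by 0.65 (limma adjusted p = 0.0139), and its 3 probes gave -0.72 to -0.58. TPR4 (AT3G15880, -0.32), the histone deacetylase HDA19 (AT4G38130, -0.23) and NINJA (AT4G28910, 0.22) did not pass, nor did the receptor COI1 (AT2G39940, -0.12, adjusted p = 0.642), which was singled out after its value was seen. Blocking on slide called 1 gene of this list higher and 5 lower, where 33.8% and 30.7% of all genes were called. Position averages gave no call. The fall of TPR1 was kept in 10 of 12 fits that left out an array or average.

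Of 7 cofactors and turnover factors of MYC2 tested, 1 rose and none fell, with a median of 0.33, where 15.7% of all genes rose. The acetyltransferase HAC1 (AT1G79000) rose by 0.44 (adjusted p = 0.0395), a call kept in 2 of 12 fits that left out an array or average. The Mediator subunit MED25 (AT1G25540, 0.55, adjusted p = 0.0577), BPM3 (AT2G39760, 0.78, adjusted p = 0.0647), an adaptor of MYC protein turnover, and the deubiquitinase UBP13 (AT3G11910, 0.33, adjusted p = 0.119) did not pass. The 2 probes of BPM3 gave 0.11 and 0.78. Blocking on slide called 4 higher and 1 lower, where 33.8% and 30.7% of all genes were called, and position averages gave no call.

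Among 9 listed MYB factors that work with MYC proteins 5 were tested, of which 2 rose and none fell, where 15.7% of all genes rose. Between 0 and 2 rose when an array or average was left out, with 0 without WT replicate 2 or without WT replicate 4. MYB29 (AT5G07690), of aliphatic glucosinolate synthesis, rose by 1.14 (adjusted p = 0.0117) from a level well above background on 3 of 4 WT arrays, and its arrays overlapped. The change of MYB29 was 0.03 between the first arrays of the lines and 2.25 between the second, 0.51 to 1.77 with an array or average left out (call kept in 9 of 12) and 0.30 with normexp (adjusted p = 0.147). MYB34 (AT5G60890), of the indolic branch, rose by 0.78 (adjusted p = 0.0138, kept in 8 of 12). MYB51 (AT1G18570, 0.44) and MYB122 (AT1G74080, -0.22) did not pass. The stamen factors of the list, known partners of MYC5, had no array well above background. Position averages gave no call among the 5.

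Genes known as MYC-activated rose in most cases. Of 13 tested 10 rose and 1 fell, with a median of 1.45, where 15.7% of all genes rose and 11.0% fell, and 8 to 10 rose when an array or average was left out. The fall, that of RD26 (AT4G27410, -0.38, adjusted p = 0.0472), a stress-responsive NAC factor singled out after its value was seen, was lost in all 12 of those fits. VSP1 (AT5G24780), a storage protein, rose by 2.34 (adjusted p = 0.00242), LOX3 (AT1G17420), a lipoxygenase of jasmonate synthesis, by 2.01 (0.0026), CYP94C1 (AT2G27690) by 1.92 (0.00242) and CYP94B3 (AT3G48520) by 1.50 (0.005), both oxidases that inactivate the hormone. Position averages left 3 rises, where 2.74% of all genes rose, with VSP1 (0.174) not among them. The change of VSP1 was 0.70 between the first arrays of the lines and 3.98 between the second. Its 3 probes that passed the filter gave 1.79 to 3.33. Of 5 listed genes known as lowered by MYC2, 3 were tested. ERF1 (AT3G23240), a factor of the ethylene branch, rose by 0.52 (adjusted p = 0.0371). That call was kept in 3 of 12 fits that left out an array or average, with changes of 0.27 to 0.78, and was lost with normexp (0.17, adjusted p = 0.407), quantile normalization (0.102), the array median as the scale (0.085) and position averages (0.408). PDF1.2A (AT5G44420, -0.21) and ORA59 (AT1G06160, -0.02) did not pass.

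**Figure D4:**
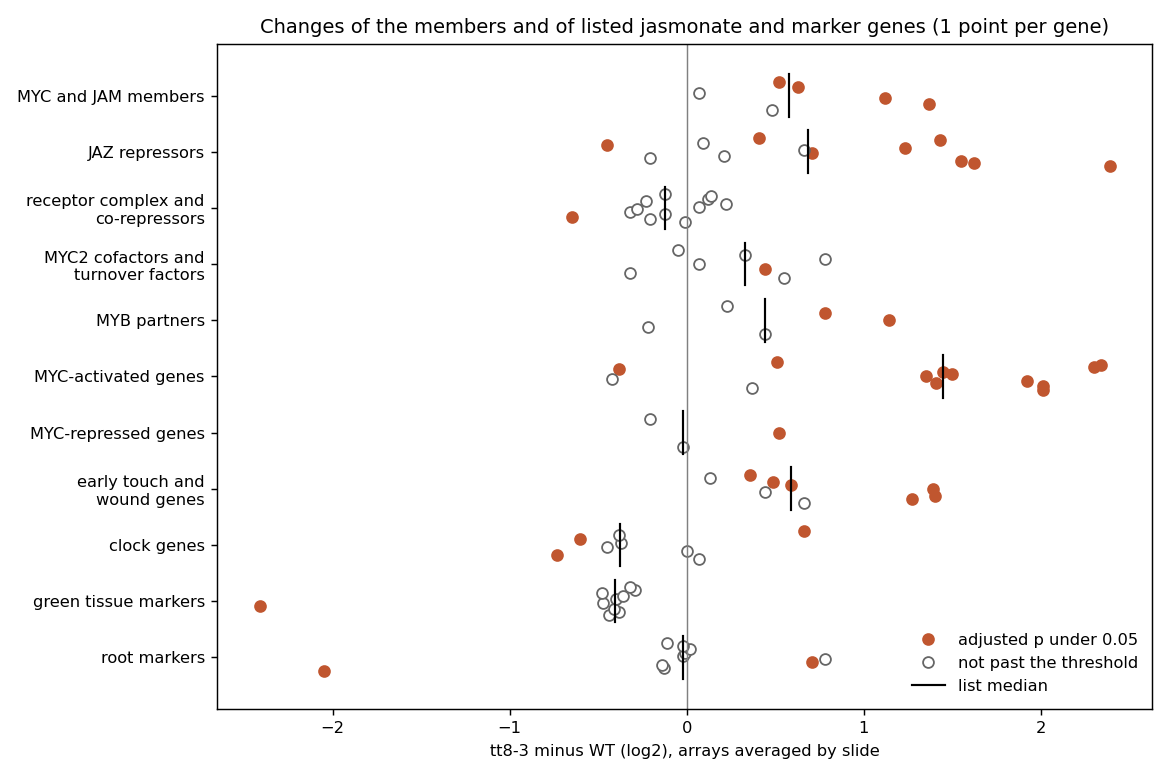
Change of every tested gene of the listed groups (tt8-3 minus WT, log2), 1 point per gene, filled where the adjusted p is under 0.05, with a bar at the median of the list. The medians are 0.57 for the members, 0.69 for JAZ genes and 1.45 for MYC-activated genes, against -0.12 for the receptor complex and co-repressors.

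Early touch and wound genes mostly rose, with a median change of 0.59, while clock genes had a median of -0.37. The part of both lists in the results was not tested. Of 9 touch and wound genes tested 6 rose and none fell, where 15.7% of all genes rose. Between 2 and 6 rose when 1 array was left out. With the array median as the scale 3 rose, where 11.2% of all genes did. The summed level was 5.43 to 6.10 in WT and 6.23 to 6.39 in tt8-3. WRKY33 (AT2G38470) rose by 1.40, TCH2 (AT5G37770) by 1.39, WRKY40 (AT1G80840) by 1.27 and TCH4 (AT5G57560) by 0.49, and of these TCH2 passed with position averages (adjusted p = 0.0238). The change of TCH4 was 0.98 between the first arrays of the lines and 0.01 between the second, and 0.31 to 0.67 with an array or average left out. Its call was kept in 2 of those 12 fits and lost with the array median as the scale (adjusted p = 0.08). Of 8 clock genes 1 rose and 2 fell, where 15.7% and 11.0% of all genes did. With the array median as the scale 1 rose and 5 fell, where 11.2% and 13.7% of all genes did. With slide as the block 1 rose and 5 fell, where 33.8% and 30.7% of all genes did. No clock gene was called with position averages or without either WT slide average. TOC1 (AT5G61380) rose by 0.66, GI (AT1G22770) fell by 0.73 and PRR7 (AT5G02810) by 0.60, while CCA1 (AT2G46830) was at -0.45 (adjusted p = 0.0516).

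All 10 green tissue markers and all 10 root markers were measured. For green tissue the summed level was 10.39 to 11.53 in WT and 10.24 to 11.06 in tt8-3, and none rose and 1 fell. For root it was 4.61 to 5.64 in WT and 5.49 to 5.72 in tt8-3, and 1 rose and 1 fell. Of all genes tested 15.7% rose and 11.0% fell. All 10 changes of green tissue markers were below 0, with a median of -0.41, and blocking on slide called all 10 lower, where 30.7% of all genes were. The marker that fell without the block, LHCB2.1 (AT2G05100), gave -2.41 and 4.43 at its 2 probes. RCA (AT2G39730, -0.47), LHCB3 (AT5G54270, -0.29) and PSAD1 (AT4G02770, -0.48) did not pass without the block and passed with it (adjusted p = 0.00428, 0.0143 and 0.00464). The size of these changes depended on the scale. With quantile normalization RCA was at -0.16, LHCB3 at 0.03 and PSAD1 at -0.12, while LHCB2.1 stayed at -2.33. The arrays of the lines overlapped for all green tissue markers but LHCB2.1. Among root markers the nitrate transporter gene NRT2.1 (AT1G08090) fell by 2.05, and WOX5 (AT3G11260, 0.78) and CASP1 (AT2G36100, -0.14) did not pass. PYK10 (AT3G09260), a root glucosidase, rose by 0.71 with overlapping arrays. Leaving out an array or average kept that call 7 of 12 times (0.46 to 0.97), and it was lost with position averages (adjusted p = 0.3). The part of these organ markers in the members' results was not tested.

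Likeness to each member was measured by Pearson's r of level over the 8 arrays, which share slides and both lines, and is given as a description. Levels most like those of MYC2 were found for the immune receptor gene WRR4 (AT1G56510, r = 0.998), AT5G44920 (0.998) and AT3G02510 (0.997). WRR4 lay at -8.62 to -7.03 in WT and -1.67 to -1.43 in tt8-3. Its WT levels were below the lowest level well above background on each WT array (-6.42 to -5.76). For JAM1 the nearest were AT2G36470 (0.998), AT3G27210 (0.998) and AT1G71080 (0.997), whose changes were 1.05, 1.04 and 0.64. For MYC3 they were AT1G28690 (0.997), AT5G52020 (0.996) and AT5G57655 (0.995), and for MYC4 they were AT4G39550 (0.997), the mitotic cyclin gene CYCB1;1 (AT4G37490, 0.993) and AT3G61840 (0.99). The 3 nearest to JAM2 were AT1G07650 (0.997), IDD7 (AT1G55110, 0.997) and AT2G30020 (0.994), with changes of 0.41 to 0.70 of which none passed the test. JAM3 had the lowest of these values, 0.965 for AT2G24360, 0.961 for CDPK6 (AT4G23650) and 0.959 for TRM6 (AT3G05750). Between members r over the same arrays was 0.94 for MYC2 with JAM1 and with MYC4, 0.87 for MYC2 with MYC3, 0.74 for JAM2 with JAM3 and 0.17 for JAM1 with JAM3.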

How the data were processed

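RNA of 4 WT and 4 tt8-3 arrays was measured as spot intensity with Agilent Feature Extraction 10.7.1.1, and the processed signal, a linear intensity after background subtraction and detrending, carries no scaling between arrays, per the file headers. The same software set the flags for detection, saturation and unevenness. The deposited value table holds log2 values, which matched the processed signal after scaling by the array's 75th percentile, log2 and centring of each probe on its slide median (correlation at least 0.9999). No further steps are given in the sources used here.

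Levels were processed signals on a log2 scale relative to the array's 75th percentile (545 to 1108) over 43603 probes. The share of probes well above background was 68.8% to 77.1%, none was saturated, and 4 to 23 uneven or outlying spots per array were left out, none of a member. The number of arrays limits the precision. Accessions named 34358 probes through a RefSeq gene table of assembly TAIR10.1, and the brightest probe stood for a gene. Genes well above background on all 4 arrays of a line were tested (19226) with limma 3.58.1 in R 4.3.3, Benjamini-Hochberg adjustment over all of them and a threshold of 0.05, which was checked on simulated data. Same-slide arrays of one line were averaged. The other reading of the design text (position averages), other scalings, normexp, filters, blocks and left-out arrays were tried. The lower bound for a dim gene uses, per array, the lowest signal well above background or the gene's own, if higher.

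Same-numbered averages share a slide per the labels, and over genes their deviations from the line means correlated at 0.78, so slide pairs them. For single arrays of the same replicate number the correlation was 0.28 to 0.38. In WT, arrays at the same place on both slides were closer (median absolute difference 0.15) than arrays of 1 slide (0.318), and in tt8-3 the order was the other way round (0.173 against 0.133).

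The members and lists were chosen with earlier results of these data known. Genes named are all members, TT8 and its relatives, up to 4 genes with the smallest p of each other list, and the 3 genes most like each member. No nucleotide or protein sequence was used here.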

Additional observations from a re-analysis of the deposited data

Results flagged for a closer look

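Levels of the named genes were checked for a single array far from the other 3 of its line, over 106 sets of 4 arrays. The only such value was that of BPM3 on tt8-3 replicate 1, at -0.76 against -0.25 to -0.18 on the other tt8-3 arrays. Chance gives about 1 in 20 sets. None of the 18 sets of the members showed such an array.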

How the results depend on the processing

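Against 5133 genes past the threshold, normexp background correction gave 3380, no filter on dim probes 2406, averaging by position 599 and the deposited value table, which is centred within slides, 13890. Slide as a replicate block on the averages gave 12394 genes, and on single arrays 6586. The replicate number as a replicate block on single arrays gave 7366. Leaving out an array or a slide average gave 2067 to 5037, the lowest without the WT average of slide 2. Of the members, 2 to 4 rose in those 12 fits, and MYC2 kept its call in every fit run. The block changed no call of a member other than that of JAM2. JAM3 changed sign with the array median (-0.04), within slide 1 (-0.01) and with an array or average left out (-0.06 to 0.19). So did ORA59 (-0.27 to 0.23), MYB122 (-0.44 to 0.01) and CASP1 (-0.34 to 0.06) with an array or average left out, LHCB3 (0.03) with quantile normalization and LHCB2.1 (1.01) with the median over probes. The cause was not tested. A lone array or average left in a line was assumed to vary like the others. Signal over background limits MYC5, BHLH14 and the dimmer probes of MYC4 and JAM3.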
